A study of Mus musculus with 21 samples.

Results

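Multipotent progenitors of the lymphoid-biased type 4 (MPP4) from mice homozygous for a mutation of Etv6 were compared with MPP4 of wild-type mice. The members are the 7 MPP4 libraries, 4 mutant and 3 wild type, of 21 libraries in all, and the comparison took the mutant mean minus the wild-type mean of each gene on the log2(RPKM + 1) scale. RPKM is a read number scaled to transcript length and to library size. Of 11628 genes in the deposited table, 11037 reached 1 RPKM in at least 3 of these 7 libraries and were tested.

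The labels do not say which libraries came from the same mouse, so p-values measure the spread between these libraries, part of which may be technical. Bone marrow cells that lacked lineage markers and carried cKit, Sca1 and FLK2 were sorted by flow cytometry, and polyadenylated RNA was turned into full-length cDNA by SMART-seq. The mutant mice are labelled ETV6 mt/mt, the mutation is written h.P214L, and no strain is named in the labels. Replicates 1 of both genotypes were 12-week-old females, replicates 2 12-week-old males, replicates 3 10-week-old females, and mutant replicate 4 a 12-week-old female. Libraries of haematopoietic stem cells (HSC; lineage-negative, cKit and Sca1 positive, CD150 positive, without FLK2 and CD38) and of common lymphoid progenitors (CLP; lineage-negative, positive for IL7 and Flk2 as labelled, with low cKit and Sca1) from the same genotypes, 3 wild type and 4 mutant each, were used for the spread between libraries and as reference populations. Their ages and sexes were those of the MPP4 libraries of the same number, except that mutant replicate 4 of CLP was 10 weeks old.

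Etv6 encodes a transcriptional repressor of the ETS family, which binds DNA around a GGAA core and recruits corepressors. It is needed for haematopoiesis in adult bone marrow, and inherited human mutations of the gene lower platelet counts and predispose to leukaemia. MPP4 lie between the stem cell and the committed lymphoid progenitor: they carry the Flt3 receptor, begin to transcribe lymphoid genes such as Dntt and Rag2, and have lost most of the stem cell and megakaryocyte programme that HSC keep.

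The gate genes were present in both genotypes. Flt3, which encodes FLK2, had a mean of 383 RPKM (SD 17.5, n = 4) in mutant and 384 RPKM (SD 33.4, n = 3) in wild-type MPP4. Kit, the stem cell factor receptor, had 176 (SD 13.2) against 151 RPKM (SD 19.9), and Ly6a, which encodes Sca1, 60.2 (SD 9.48) against 56.4 RPKM (SD 12.7). None of the 11 gate and lineage marker genes in the table was called. Etv6 itself measured 88.4, 95.6 and 84.3 RPKM in wild-type replicates 1 to 3 and 87.1, 81.1, 83.3 and 88.8 RPKM in mutant replicates 1 to 4, with overlapping groups and an exact two-sided permutation p of 0.286, where 35 splits allow no p below 0.0286. The level of a transcript that differs by a point mutation is no check of the genotype. Of 177 tested genes within 20 Mb on either side of Etv6, 0 were called, and the smallest Benjamini-Hochberg adjusted p in limma was 0.113, for Slc2a3.

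One mutant library stood apart. RPKM summed to between 346601 and 366363 over the 7 libraries, and the median gene lay between 12.3 and 13.1 RPKM, while the number of reads is unknown. Principal components 1 to 3 held 29.8%, 23.9% and 17.0% of the variance over genes. Mutant replicate 1 scored 26.5 on the second component, on which the other 6 libraries lay at -0.84 or below, and it listed 43 genes at 0 where the others listed 2 to 9. Platelet genes were highest as a list in mutant replicate 1, followed by wild-type replicate 1. The mean level of the megakaryocyte and platelet list was 4.66 log2 units in mutant replicate 1, 3.26 in wild-type replicate 1 and at most 2.79 in the other libraries. Pf4, a platelet chemokine, measured 36.5 RPKM in mutant replicate 1 against 2.72 to 4.39 RPKM in mutant replicates 2 to 4, and 150.2 RPKM in wild-type replicate 1 against 1.99 and 1.10 RPKM in wild-type replicates 2 and 3. Itga2b, the platelet integrin chain, measured 43.1 RPKM in mutant replicate 1 and between 0.67 and 5.74 RPKM in the other 6 libraries. Counts of called genes are therefore also given without mutant replicate 1 and without both libraries numbered 1. Of 24 defining markers of other cell types, 15 were in the table. Among them S100a8 and S100a9, of neutrophils, were highest in mutant replicate 2 (740.3 and 497 RPKM) and lowest in wild-type replicate 3 (3.86 and 5.04 RPKM). Elane, also of neutrophils, had another order. It measured 22.5 RPKM in wild-type replicate 1, 20.8 in mutant replicate 4, 1.62 in mutant replicate 2 and 0.114 in mutant replicate 1. Gp1bb, of platelets, was listed at 0 in mutant replicate 2 and wild-type replicate 3. In bulk RNA, fewer cells of a type and less RNA per cell cannot be told apart.

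Mutant MPP4 had more transcript of 10 genes and less of 13. The higher genes include Gng11, a G-protein subunit of platelets, Hlf, a transcription factor of stem cells, and Gas6, a ligand of receptor kinases. The lower genes include Irf8, which drives dendritic cell and monocyte development and acts in early B cells, and Blnk and Blk, which signal in B-cell precursors. The threshold for a call was 0.05 for the p from limma after Benjamini-Hochberg adjustment. It was met by 23 of 11037 genes, 0.208% of those tested, with 0.0906% higher and 0.118% lower. Before adjustment 916 genes had p under 0.05, and 552 would by chance. On the log2(RPKM + 1) scale the change of a gene near 1 RPKM is understated. For each of the 23 genes the 4 mutant libraries lay all above or all below the 3 wild-type libraries. The same held for 6.65% of all 11628 genes in the upward direction (773 genes) and 3.38% in the downward direction (393 genes). Under quantile normalization 5 genes were higher and 14 lower, a share of 26.3% higher in place of 43.5%. With library weights 117 were higher and 61 lower (65.7% higher), with sex and age as terms 25 and 24, and with no variance trend 16 and 12.

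**Figure D1:**
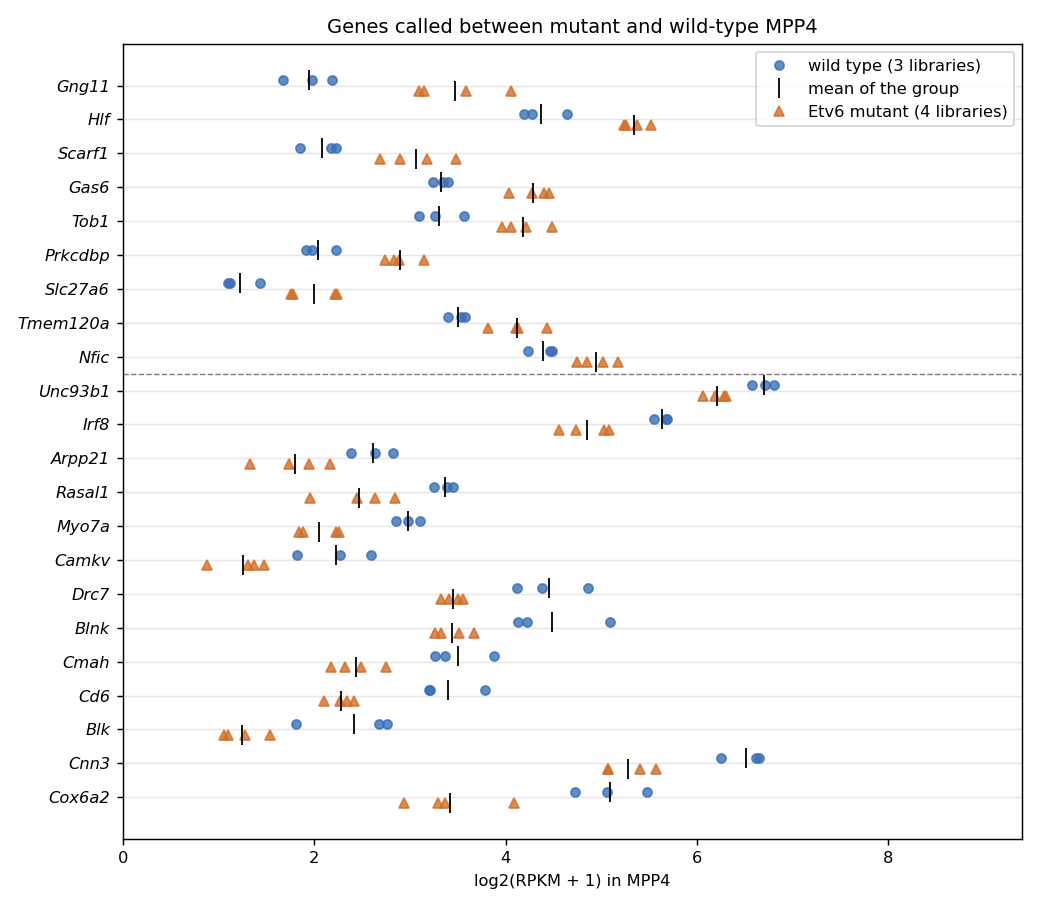
Level of 22 of the 23 called genes in the 7 MPP4 libraries on the log2(RPKM + 1) scale, wild-type libraries as blue circles and mutant libraries as orange triangles, with a black tick at each group mean. The 9 genes above the dashed line were higher and the 13 below it lower in the mutant, and in no row do the groups overlap.

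Gng11 and Hlf belong to the megakaryocyte and stem cell lists. Gng11, the gamma 11 subunit of heterotrimeric G proteins (chromosome 6, 4003987 to 4008445), measured 2.93, 3.55 and 2.20 RPKM in wild-type replicates 1 to 3 and 15.6, 11.04, 7.84 and 7.55 RPKM in mutant replicates 1 to 4. Every mutant library was above every wild-type one, and mutant replicate 1, with its platelet transcripts, was the highest. The log2 change was 1.53 (SE 0.21), with a Benjamini-Hochberg adjusted p of 0.00193 in limma. Hlf, a leucine zipper transcription factor typical of stem cells (chromosome 11, 90336535 to 90390917), measured 24.0, 18.4 and 17.2 RPKM in wild type and 36.6, 37.3, 40.4 and 45.0 RPKM in the mutant. Mutant replicate 1 was the lowest of the mutant libraries here, in contrast to Gng11. Its log2 change was 0.98 (SE 0.19; limma, Benjamini-Hochberg adjusted p 0.0350).

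Gas6, the vitamin K-dependent activator of TAM-family receptor kinases (chromosome 8, 13465374 to 13494535), measured 9.56, 9.17 and 8.46 RPKM in wild type and 18.3, 15.4, 20.8 and 20.2 RPKM in the mutant. Each mutant library exceeded each wild-type one by more than the wild-type spread. The log2 change was 0.96 (SE 0.15; limma, Benjamini-Hochberg adjusted p 0.00628). Its receptors were not called: Axl had 5.60 RPKM (SD 2.14) in mutant against 4.17 (SD 0.80) in wild type, and Mertk 1.13 (SD 0.64) against 1.20 (SD 0.15). Pros1, the other TAM ligand of the list, measured 8.86 RPKM in mutant replicate 1 and at most 2.33 in the other mutant libraries.

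Another 6 higher genes serve different roles. Prkcdbp, also known as Cavin3, encodes a coat protein of caveolae and had a mean of 6.51 RPKM (SD 0.95) in mutant against 3.13 (SD 0.49) in wild type. Scarf1, a scavenger receptor, measured 2.60, 3.69 and 3.52 RPKM in wild type and 10.2, 8.03, 6.44 and 5.46 RPKM in the mutant, where mutant replicate 1 was again the highest. Tob1, an antiproliferative factor, had 17.3 (SD 2.99) against 8.999 RPKM (SD 1.67). Slc27a6, a fatty acid transporter, had 3.05 (SD 0.74) against 1.34 RPKM (SD 0.31), and its wild-type level lay near the 1 RPKM threshold. Nfic, a transcription factor of the nuclear factor I family, had 30.0 (SD 4.08) against 20.1 RPKM (SD 1.98), and Tmem120a, a membrane protein gene, 16.6 (SD 3.05) against 10.4 RPKM (SD 0.72). Benjamini-Hochberg adjusted p in limma ran from 0.0170 for Prkcdbp to 0.0478 for Tmem120a in these 6.

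Among the lower genes, Cox6a2 changed most. Cox6a2, a subunit of cytochrome c oxidase also found in plasmacytoid dendritic cells (chromosome 7, 128205435 to 128206366), measured 25.5, 32.4 and 43.5 RPKM in wild-type replicates 1 to 3 and 6.67, 15.95, 9.28 and 8.78 RPKM in mutant replicates 1 to 4. Mutant replicate 2 was the highest mutant library and still lay below wild-type replicate 1. Its log2 change was -1.67 (SE 0.22; limma, Benjamini-Hochberg adjusted p 0.00146). Cnn3, an actin-binding calponin (chromosome 3, 121426541 to 121458205), measured 75.3, 97.4 and 99.2 RPKM in wild type and 41.3, 46.5, 32.6 and 32.5 RPKM in the mutant. The log2 change was -1.23 (SE 0.17), at the same adjusted p as Cox6a2 and Cd6. Cd6, a receptor of T cells that binds ALCAM, had 3.88 RPKM (SD 0.44) in mutant against 9.72 (SD 2.61) in wild type, a log2 change of -1.11 (SE 0.15). Cmah, which makes the sialic acid Neu5Gc, had 4.47 (SD 0.95) against 10.5 RPKM (SD 2.76; limma, Benjamini-Hochberg adjusted p 0.00314).

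Irf8, Blnk and Blk also fell, though the B-lineage list that holds Blnk and Blk had a median of 0.04. Irf8 (chromosome 8, 120736358 to 120756694), measured 50.1, 45.9 and 50.3 RPKM in wild type and 25.5, 22.6, 31.7 and 32.8 RPKM in the mutant. The 3 wild-type values lay close together and clear of the mutant range, and the log2 change was -0.79 (SE 0.15; limma, Benjamini-Hochberg adjusted p 0.0350). Blnk, which links pre-B-cell receptor kinases to their effectors (chromosome 19, 40928927 to 40994221), measured 17.7, 16.5 and 33.0 RPKM in wild type and 10.4, 9.02, 11.7 and 8.58 RPKM in the mutant. Wild-type replicate 3 was far above the other 2 wild-type libraries, and the log2 change was -1.04 (SE 0.21; adjusted p 0.0402 in limma after Benjamini-Hochberg adjustment). Blk, a Src-type kinase of the B lineage (chromosome 14, 63372837 to 63417187), measured 5.79, 2.51 and 5.42 RPKM in wild type and 1.14, 1.42, 1.91 and 1.08 RPKM in the mutant. Wild-type replicate 2 came closest to the mutant range, and the log2 change was -1.18 (SE 0.24; limma, Benjamini-Hochberg adjusted p 0.0463).

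The other 6 lower genes had the following values. Unc93b1, the chaperone that carries nucleic acid-sensing Toll-like receptors to endosomes, had 73.0 RPKM (SD 5.48) in mutant against 103.0 (SD 8.45) in wild type. Arpp21, a phosphoprotein gene on the early lymphoid list, had 2.55 (SD 0.84) against 5.18 (SD 0.94), and Rasal1, a Ras GTPase-activating protein, 4.68 (SD 1.38) against 9.30 (SD 0.71). Myo7a, an unconventional myosin, had 3.18 (SD 0.64) against 6.90 RPKM (SD 0.68). Drc7, a component of the dynein regulatory complex of cilia, had 9.95 (SD 0.78) against 21.5 (SD 6.04), and Camkv, a vesicle-associated pseudokinase, 1.42 (SD 0.41) against 3.80 (SD 1.25). The adjusted p from limma with Benjamini-Hochberg adjustment was 0.00628 for Drc7, 0.0130 for Myo7a and between 0.0229 and 0.0463 for the others.

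How far these calls rest on single libraries was measured by leaving out each of the 7 in turn. Gng11, Cox6a2, Cnn3, Cd6 and Cmah were called in all 7 fits, at Benjamini-Hochberg adjusted p up to 0.0400. Drc7 and Gas6 lost the call only without wild-type replicate 3 (adjusted p 0.0730 each). Prkcdbp was kept in 4 of the 7 fits and Myo7a in 4, and Tob1, Blnk and Camkv in 3. Irf8, Scarf1, Slc27a6, Blk and Arpp21 were kept in 2, and Hlf, Rasal1, Nfic and Tmem120a in 1. Unc93b1 was kept in 0. Among the 7 fits, Hlf was kept only without wild-type replicate 1, and Irf8 only without mutant replicate 3 or 4. Blnk was lost without mutant replicate 1, 2 or 4 or wild-type replicate 3, and Blk was kept only without mutant replicate 3 or wild-type replicate 2. The highest adjusted p among the fits was 0.266 for Irf8, 0.328 for Hlf, 0.420 for Blnk and 0.459 for Nfic and Arpp21. In number, 11 genes were called without mutant replicate 1, of which 10 are among the 23, 15 without mutant replicate 4, 14 without wild-type replicate 2 and 7 without wild-type replicate 3. Without both libraries numbered 1, 8 were called, among them Camkv, Cd6, Cmah, Cnn3, Cox6a2, Drc7 and Gng11. Other settings kept other genes. The call was kept by Cnn3, Gas6 and Hlf with MPP4 libraries alone, and by Cnn3 and Myo7a among others with a pseudocount of 0.1. Gng11, Cox6a2, Cd6 and Cmah lost the call in both of these settings. For every one of the 23 genes the direction was the same in the 21 alternative fits. Since the groups of these genes did not overlap, leaving out libraries or changing the pseudocount could not have turned it. The 5 genes next in p included Rag2, a recombinase subunit of antigen receptor genes, with 8.13 RPKM (SD 2.05) in mutant against 17.2 (SD 5.45) in wild type and an adjusted p of 0.0581, and Cdk18, a cyclin-dependent kinase, with 9.20 (SD 1.44) against 5.02 (SD 0.99) and 0.0546.

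The 250 bases before the start sites of 4 called genes are shown because Etv6 belongs to the ETS family, whose core is GGAA. Hlf and Gas6 are from the higher set and Cnn3 and Irf8 from the lower. Sequences run 5′ to 3′ on the strand of the gene, from RefSeq on GRCm38.p6 (mm10), and capitals mark GGAA or, on the opposite strand, TTCC.
Hlf (chr11:90390918-90391167, - strand): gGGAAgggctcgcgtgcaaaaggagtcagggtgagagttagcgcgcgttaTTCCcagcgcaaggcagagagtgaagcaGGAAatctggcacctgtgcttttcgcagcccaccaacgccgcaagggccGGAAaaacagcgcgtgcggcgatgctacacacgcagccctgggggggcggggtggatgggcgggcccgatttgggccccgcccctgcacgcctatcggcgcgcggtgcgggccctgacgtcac
Gas6 (chr8:13494536-13494785, - strand): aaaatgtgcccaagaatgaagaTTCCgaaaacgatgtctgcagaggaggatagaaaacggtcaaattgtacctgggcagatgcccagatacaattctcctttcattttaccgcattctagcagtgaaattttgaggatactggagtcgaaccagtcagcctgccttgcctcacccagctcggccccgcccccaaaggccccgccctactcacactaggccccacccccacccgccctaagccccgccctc
Cnn3 (chr3:121426291-121426540, + strand): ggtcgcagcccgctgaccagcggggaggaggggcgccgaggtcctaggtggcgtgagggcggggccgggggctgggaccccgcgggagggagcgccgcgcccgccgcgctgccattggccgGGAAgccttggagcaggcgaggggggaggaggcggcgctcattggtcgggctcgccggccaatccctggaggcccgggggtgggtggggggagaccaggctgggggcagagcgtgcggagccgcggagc
Irf8 (chr8:120736108-120736357, + strand): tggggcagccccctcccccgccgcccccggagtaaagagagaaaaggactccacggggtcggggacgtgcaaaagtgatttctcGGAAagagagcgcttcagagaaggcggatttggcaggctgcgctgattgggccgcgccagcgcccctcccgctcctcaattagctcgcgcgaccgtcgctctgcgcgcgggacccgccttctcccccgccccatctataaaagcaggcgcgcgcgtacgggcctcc
The Hlf window holds 4 cores, and the Gas6, Cnn3 and Irf8 windows shown 1 each. Irf8 has another listed start, whose window holds 2. Over the 13 called genes with an entry, GGAA or TTCC was in the window of 3 of 5 higher and 8 of 8 lower genes, where 94.4% of 8933 tested genes with an entry had it. The longer CGGAAG, on either strand, was found for 1 of 5 higher genes (Tmem120a), 1 of 8 lower genes (Arpp21) and 30.8% of all, and CCGGAAGT, which contains CGGAAG, for 0 of 5, 0 of 8 and 7.28%. A gene with several listed starts counted where any of its windows held the motif, and matches are to letters only.

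Genes that were higher in mutant MPP4 were those that wild-type HSC express more than wild-type CLP, and most of the lower genes were those that CLP express more. This ordering was taken from the wild-type HSC and CLP libraries, which hold none of the MPP4 libraries. The same HSC and CLP libraries entered the spread used for the calls, so the calls and the ordering are not independent. On this scale a gene near 0 RPKM in HSC or CLP adds little to that spread. With MPP4 libraries alone in the fit, 3 genes were called: Cnn3, Gas6 and Hlf. In limma with Benjamini-Hochberg adjustment, 30.2% of the 11037 genes were higher in HSC (3336) and 19.7% higher in CLP (2172). Of the 10 higher genes, 10 were higher in HSC, with log2 differences of CLP minus HSC that include -5.92 for Gng11 and -0.86 for Tmem120a. Of the 13 lower genes, 12 were higher in CLP, up to 7.60 for Cox6a2, and Myo7a was higher in neither (0.30).

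**Figure D2:**
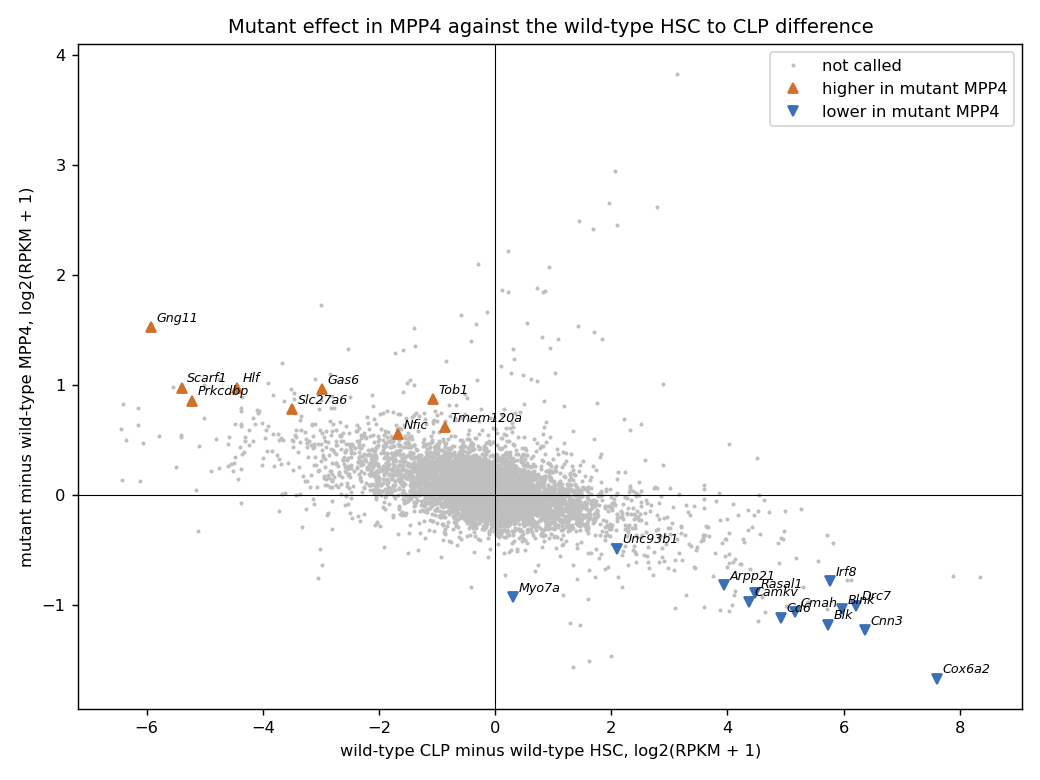
Mutant minus wild-type MPP4 (vertical) against wild-type CLP minus wild-type HSC (horizontal), both in log2(RPKM + 1), for the tested genes, with 22 of the 23 called genes named. The orange genes, higher in the mutant, lie left of 0 and the blue genes, lower in the mutant, lie right of it.

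The same ordering was seen over the whole table of 11628 genes, with no filter on level. Among 3666 genes higher in wild-type HSC, the median mutant change in MPP4 was 0.11 and 77.7% were positive. Among 2230 genes higher in CLP the median was -0.07 and 72.4% were negative, and over all genes the median was 0.02 and 55.8% were positive. Of the 65 genes more than 4 log2 units higher in HSC, 62 were positive, with a median of 0.53. Of the 59 genes as far higher in CLP, 57 were negative, with a median of -0.61. Without each library in turn these medians lay between 0.45 and 0.60 and between -0.75 and -0.45. The mean level of the 65 HSC genes was 2.70, 2.49 and 2.31 log2 units in wild-type replicates 1 to 3 and 3.31, 2.97, 2.96 and 2.90 in mutant replicates 1 to 4. That of the 59 CLP genes was 4.10, 4.29 and 4.63 in wild type and 3.68, 3.82, 3.79 and 3.65 in the mutant. Wild-type replicate 1 was the wild-type library nearest the mutant range for both sets. Over 11628 genes both differences correlated at -0.461 (Pearson) and -0.444 (Spearman), a description across genes of one table, which are not independent replicates.

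Differences of the same genes in HSC and CLP were smaller, though the 23 were chosen on the MPP4 values, and the difference between populations passed the test for no gene in the limma fit that treats all libraries as independent. In HSC the mutant minus wild-type contrast called 4 of 11037 genes (0.0362%), and in CLP 0 (0%; 489 at an unadjusted p under 0.05). None of the 23 was called in HSC or CLP. The median change of the 10 higher genes, on the log2 scale, was 0.92 in MPP4, 0.04 in HSC and -0.00 in CLP, and that of the 13 lower genes -1.01, 0.01 and -0.18. Several of these genes lay near 0 RPKM outside MPP4, where this scale understates a change. Wild-type HSC had 0.41 RPKM of Cox6a2, 0.18 of Cd6 and 0.27 of Blk, and wild-type CLP 0.41 of Gng11 and 0.35 of Prkcdbp. The MPP4 effect minus the HSC effect called 0 genes in limma (0%; 403 at an unadjusted p under 0.05), and the smallest Benjamini-Hochberg adjusted p was 0.0777, for Cnn3 and Cd6. The MPP4 effect minus the CLP effect also called 0 (0%; 429 at an unadjusted p under 0.05), with 0.0810 as the smallest, for Cox6a2 among others. With same-numbered libraries of 1 genotype linked by a random effect, 4 and 5 genes were called. The values of the named genes show how the populations differ. Hlf stood at 19.9 RPKM in wild-type MPP4, between HSC at 56.7 and CLP at 1.62, and at 39.8 in mutant MPP4. Gas6 differed from this order, since its mutant MPP4 level of 18.7 RPKM was above the HSC levels of 10.5 (wild type) and 10.6 RPKM (mutant). Some genes changed the same way elsewhere: Myo7a -0.84 in HSC and -0.59 in CLP, Irf8 -0.53 and Tob1 0.54 in HSC, and Blk -0.99 in CLP. For Blk in CLP, 3 wild-type libraries measured 95.8, 41.0 and 74.4 RPKM and 4 mutant libraries 26.4 to 37.9. In HSC, 8 of the 10 higher and 6 of the 13 lower genes had the same sign as in MPP4, and in CLP 5 and 10. Over all 11037 tested genes 6342 had the same sign in HSC and 5846 in CLP.

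**Figure D3:**
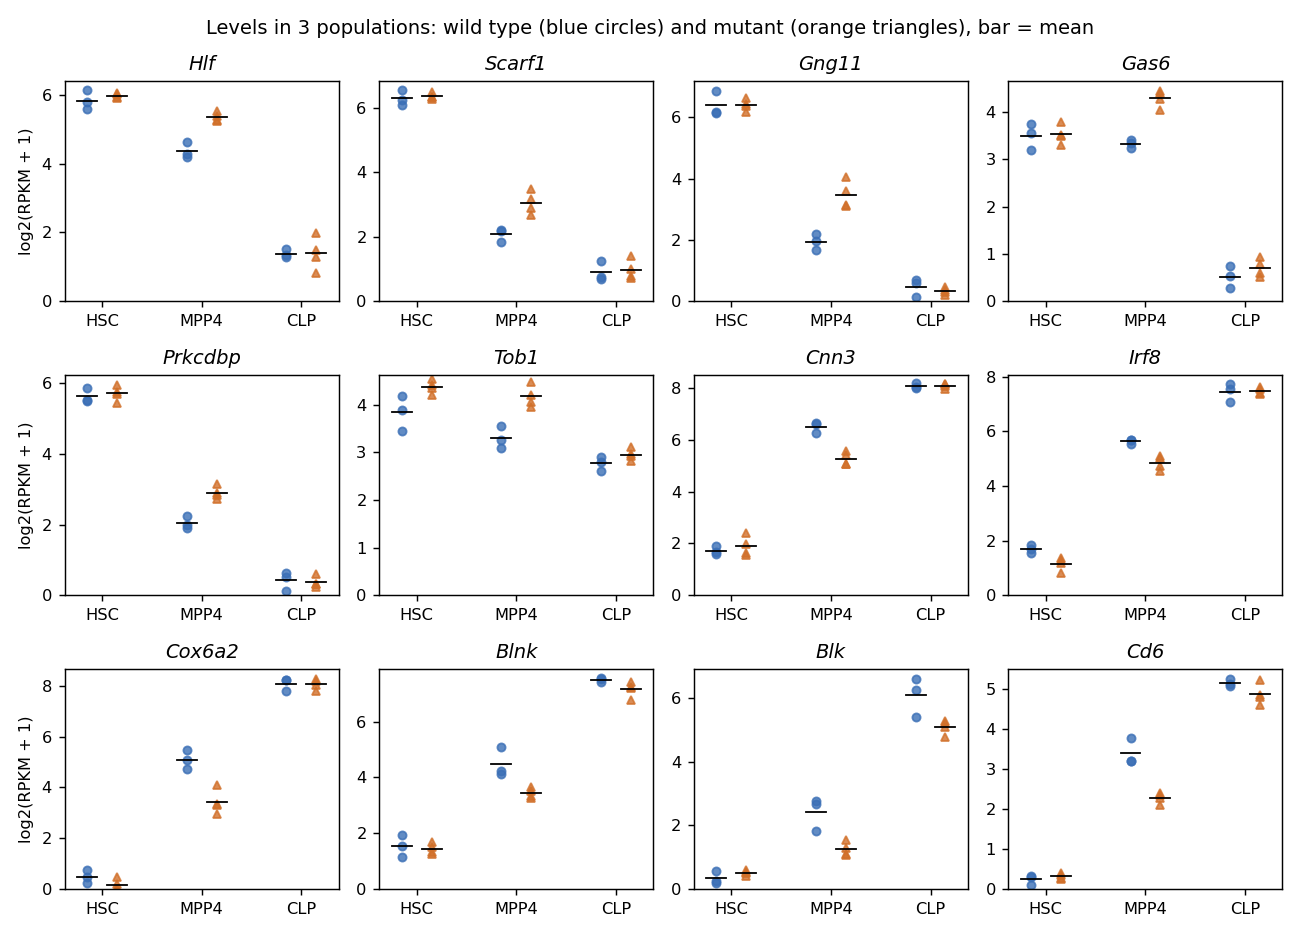
Level of 12 called genes in wild-type (blue circles) and mutant (orange triangles) libraries of HSC, MPP4 and CLP on the log2(RPKM + 1) scale, with a bar at each group mean. The mean level in mutant MPP4 lies between those of mutant HSC and CLP in every panel except that of Gas6, where it is above both.

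**Figure D4:**
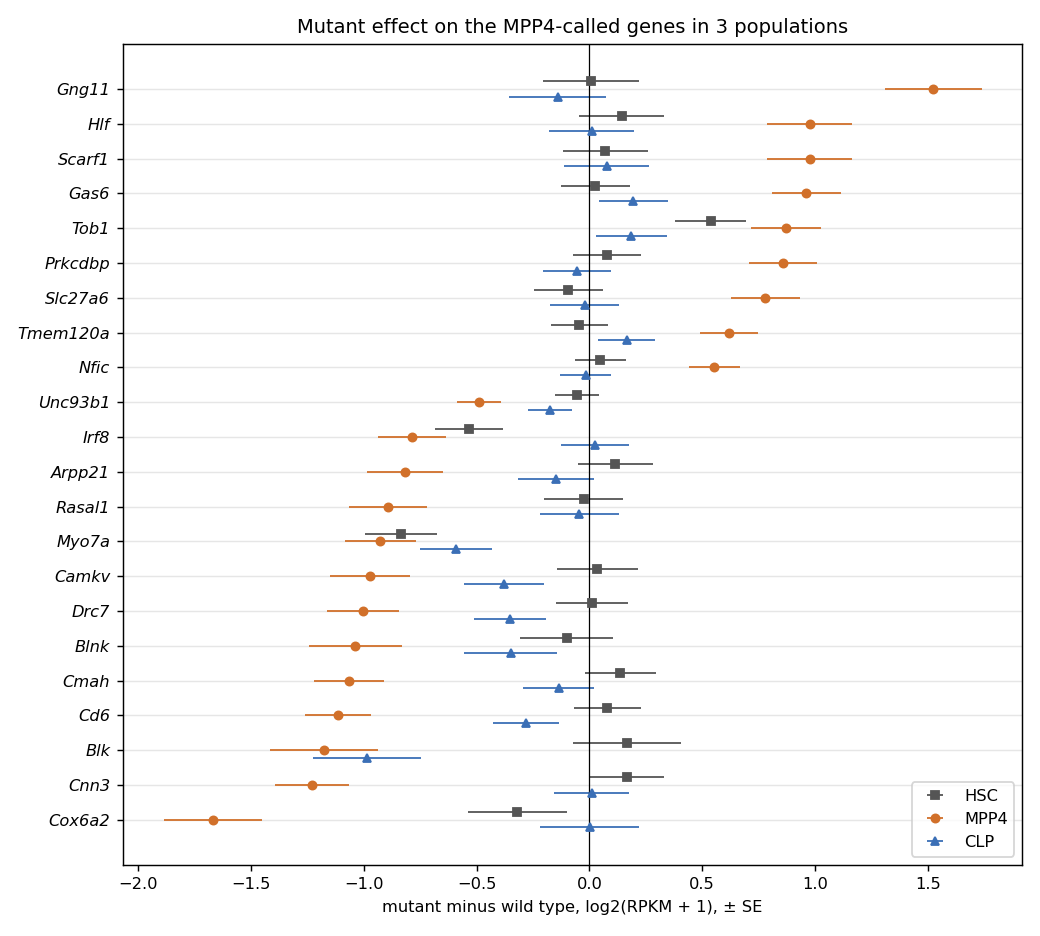
Mutant minus wild-type difference with its standard error for 22 of the 23 called genes in HSC (grey squares), MPP4 (orange circles) and CLP (blue triangles), in log2(RPKM + 1). The MPP4 values lie farthest from 0 for all 22 genes, and Myo7a and Blk have a second population near the MPP4 value. For genes near 0 RPKM in a population this scale understates a change.

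Stem cell genes were mostly positive in mutant MPP4. Of 42 in the table, 38 had a positive difference, 14 (33.3%, beside 6.65% of all genes) lay above all wild-type libraries and 2 rose (0.0906% of all genes tested), among them Hlf, with a median log2 difference of 0.32 beside 0.02 over all genes. The mean level of the list ran from 2.71 to 2.90 log2 units in wild type and from 3.07 to 3.20 in the mutant, so the groups did not overlap, and without mutant replicate 1 the median was 0.32. Meis1, a homeodomain cofactor of stem cells, measured 39.9, 38.1 and 39.9 RPKM in wild type and 54.3, 44.6, 51.5 and 55.3 RPKM in the mutant, above wild type in every library, at an adjusted p of 0.169 (limma, Benjamini-Hochberg). Mecom had 7.11 RPKM (SD 1.41) in mutant against 3.89 (SD 1.31) in wild type (adjusted p 0.295, likewise), and Cdkn1c, a cyclin-dependent kinase inhibitor, 1.41 (SD 0.20) against 0.55 (SD 0.09; 0.169). The megakaryocyte and platelet list had 30 of 32 positive and a median of 0.39, with 2 members called, among them Gng11. Without mutant replicate 1 the median was 0.03, but that value keeps wild-type replicate 1, which was also rich in platelet transcripts (list mean 3.26 log2 units). Mutant replicates 2 to 4 had list means of 2.671, 2.794 and 2.618, above wild-type replicates 2 and 3 at 2.382 and 2.365.

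Erythroid genes had the highest median of any list, and none of them was called. All 31 in the table were positive, with a median log2 difference of 1.04, and 0.89 without mutant replicate 1, and 12 (38.7%, beside 6.65% of all genes) lay above all wild-type libraries. The mean level of the list ran from 2.34 to 3.15 log2 units in wild type and from 3.54 to 4.21 in the mutant, without overlap. Summed RPKM of the list did overlap, from 652 to 3201 in wild type and from 2489 to 5265 in the mutant. Slc4a1, the anion exchanger of red cells, measured 15.5, 1.68 and 0.90 RPKM in wild type and 14.6, 39.1, 19.4 and 44.0 RPKM in the mutant, with an adjusted p of 0.553 (limma, Benjamini-Hochberg). Its groups overlapped through wild-type replicate 1, the library that also held Pf4. Epor, the erythropoietin receptor, measured 0.69, 1.54 and 0.26 RPKM in wild type and 3.73, 2.85, 2.37 and 2.30 RPKM in the mutant, with no overlap (adjusted p 0.245, likewise). Eosinophil granule genes were uneven: Prg2 measured 172.9, 1.40 and 6.97 RPKM in wild type and 48.8, 251.5, 1386 and 113.8 RPKM in the mutant. Neutrophil granule genes had a median of 0.26 over 12 (0.54 without mutant replicate 1), with sums of 901 to 1438 RPKM in wild type and 1071 to 2865 in the mutant. Of these 12, 7 were positive and 5 negative, among the latter Ctsg at 34.3 RPKM (SD 2.57) in mutant against 67.4 (SD 20.9) in wild type. Ctsg and Cst7 lay below all wild-type libraries (16.7%, beside 3.38% of all genes), 1 gene lay above, and 0 were called. The part of these other lineages in the called genes was not tested.

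Early lymphoid genes were mostly negative. Of 33 in the table, 24 had a negative difference, 11 (33.3%, beside 3.38% of all genes) lay below all wild-type libraries and 3 fell (Cnn3, Blnk and Arpp21, beside 0.118% of all genes tested), with a median of -0.17. Their mean level ran from 4.88 to 5.20 log2 units in wild type and from 4.68 to 4.83 in the mutant. Dntt, the polymerase that adds untemplated bases at antigen receptor joints, measured 847, 765 and 1055 RPKM in wild type and 595, 533, 482 and 498 RPKM in the mutant, with no overlap, at an adjusted p of 0.148 (limma, Benjamini-Hochberg). Il7r, the interleukin-7 receptor, had 7.09 RPKM (SD 1.34) against 11.6 (SD 4.01; adjusted p 0.433), with overlapping groups. The B-lineage list had a median of 0.04 with 15 of 24 positive, and Blk and Blnk were its 2 called members. The T, NK and innate lymphoid list, with Cd6 called, had a median of -0.09 over 16 genes, and the dendritic cell list, with Cox6a2 and Irf8 called, -0.09 over 23, of which 15 were negative. Without wild-type replicate 3 the medians over tested genes were 0.03 and 0.01. Csf1r, the receptor of macrophage colony-stimulating factor, had 14.9 (SD 1.73) against 31.9 RPKM (SD 8.01; adjusted p 0.0764 in limma). Most of the monocyte and macrophage list that holds Csf1r went the other way. That list had a median of 0.16 over 19 genes, with 14 positive, 5 negative and 0 called.

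**Figure D5:**
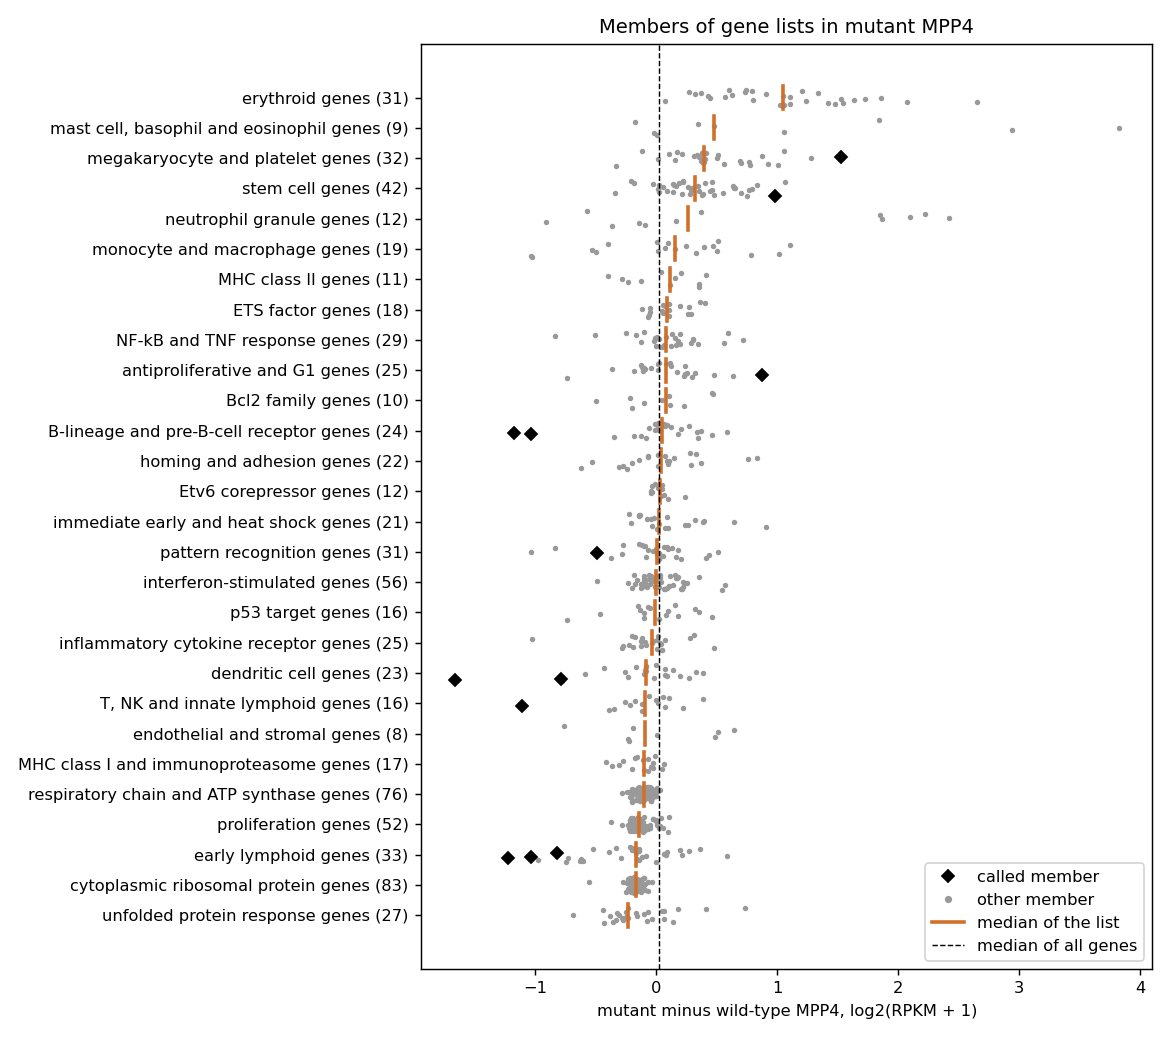
Mutant minus wild-type MPP4 difference in log2(RPKM + 1) for the members of the 28 gene lists with at least 8 in the table, gate markers aside (number in brackets; 1 called gene is not drawn), as grey dots, called members as black diamonds, and the list median as an orange bar, with the median of all genes as a dashed line. By list median, erythroid genes lie farthest right and unfolded protein response genes farthest left, while single members of other lists lie farther out.

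Medians of the inflammation lists in MPP4 lay between -0.11 and 0.12, beside 0.02 over all genes. The median of interferon-stimulated genes was -0.00, with 28 of 56 positive and 0 called: Isg15 had 20.4 RPKM (SD 0.59) in mutant against 17.8 (SD 3.31) in wild type, and Irf7 38.9 (SD 9.95) against 37.7 (SD 13.6). NF-kB and TNF response genes had a median of 0.08 over 29 and pattern recognition genes 0.01 over 31, the latter with Unc93b1 called; Tlr4 had 6.25 (SD 0.99) against 4.42 RPKM (SD 0.50). Inflammatory cytokine receptor genes had -0.04 over 25, with 0 called. Their mean level ran from 4.655 to 4.688 log2 units in the mutant, just below the 4.69 to 4.831 of wild type. For MHC class I presentation the median was -0.11, with 15 of 17 negative, but -0.05 without mutant replicate 1 or under quantile normalization. The same list had -0.14 in HSC and -0.15 in CLP. Psmb8, an immunoproteasome subunit, measured 516, 397 and 518 RPKM in wild type and 337, 331, 363 and 385 RPKM in the mutant (limma, Benjamini-Hochberg adjusted p 0.148). MHC class II genes had 0.12 over 11, and -0.05 without mutant replicate 4.

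In the ribosomal, respiratory chain, proliferation and unfolded protein response lists most members had negative differences and 0 were called. The list means of mutant and wild-type libraries overlapped in each of them. Cytoplasmic ribosomal protein genes were negative in 83 of 83 cases with a median of -0.17 (-0.10 without mutant replicate 1), while the same list had -0.16 in HSC and 0.13 in CLP. Respiratory chain and ATP synthase genes were negative in 73 of 76 with -0.11, but -0.05 without mutant replicate 1 or under quantile normalization. They had -0.09 in HSC and 0.09 in CLP. Proliferation genes were negative in 45 of 52 with -0.14, and -0.06 without mutant replicate 3, while the list had 0.09 in HSC and 0.15 in CLP. For the unfolded protein response the median was -0.24, with 20 of 27 negative, and the same list had -0.15 in HSC and -0.18 in CLP. Of the 27, 8 (29.6%, beside 3.38% of all genes) lay below all wild-type libraries and 2 above. Summed RPKM of the list did not overlap, at 1846 to 2019 in wild type and 1480 to 1770 in the mutant. Its member Hspa5, the chaperone BiP, had 141 RPKM (SD 19.0) against 189.7 (SD 8.10; limma, Benjamini-Hochberg adjusted p 0.334). Antiproliferative genes, with Tob1 called, had 0.08 over 25, of which 16 were positive. Their list means did not overlap, at 4.34 to 4.39 log2 units in wild type and 4.43 to 4.47 in the mutant. The p53 targets had -0.01 over 16. Among them Cdkn1a measured 12.3, 12.5 and 11.6 RPKM in wild type and 7.56, 5.76, 6.88 and 7.36 RPKM in the mutant (limma, Benjamini-Hochberg adjusted p 0.169). The ETS factors had a median of 0.09 over 18, of which 13 were positive. Their list means ran from 4.02 to 4.08 log2 units in wild type and from 4.12 to 4.18 in the mutant. The corepressors that bind Etv6 had 0.03 over 12, and 0 were called in either list.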

How the data were processed

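Per the labels' protocols, RNA of sorted cells was amplified by SMART-seq and libraries were made with the NexteraXT kit. Alignment used STAR and mm10, per the submitters' processing notes; the version, annotation, counting and gene selection were not given in the sources used. The values were deposited by the authors as RPKM in 1 table of 11628 genes. No read counts were recovered from them, so depth is unknown. A spreadsheet had turned 16 symbols into dates, restored through Entrez identifiers, of which 11619 matched RefSeq.

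Values were analysed as log2(RPKM + 1) with a variance trend (limma 3.58.1, R 4.3.3) and 6 group means over all 21 libraries, so that all populations share the estimate of spread (15 residual degrees of freedom); contrasts were adjusted by the Benjamini-Hochberg method, two-sided. Genes named with values are the called ones, Etv6, listed members and the 5 next in p. The members, the gene lists and the tests were chosen with earlier results of these data known. The fit was tested on simulated data. Alternatives were 20 planned settings and 1 added after seeing the data, without both libraries numbered 1. The values of 1 called gene are not reported here.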

Additional observations from a re-analysis of the deposited data

Results flagged for a closer look

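Of 126 genes looked at, 14 had 1 of the 4 mutant libraries far from the other 3 (by Dixon's gap test); chance flags about 1 in 20. In mutant replicate 1 they were Pf4 (36.5 RPKM against 2.72 to 4.39 in the other 3), Itga2b (43.1 against 0.93 to 3.86), Vwf (13.04 against 0.44 to 1.17), Pros1 (8.86 against 1.17 to 2.33) and Slamf1 (3.20 against 1.13 to 1.34), all high, and Gata3 (1.61) and Cox4i1 (273.9), both low. In mutant replicate 2, Mcm5 was high (158.7) and Acss2 (4.72), Prtn3 (67.6) and Nfkb1 (24.6) were low. In mutant replicate 3, C1qa was high (17.4), and in mutant replicate 4, Cdkn1c (1.70) and Itga4 (22.6) were high.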

How the results depend on the processing

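The 23 called genes became 12 with a pseudocount of 0.5, 3 with 0.1, 3 when MPP4 libraries alone entered the fit, 8 without both libraries numbered 1 (chosen after seeing the data), 178 with library weights, 39 with sex as a term and 49 with sex and age. Leaving out 1 library at a time gave 7 to 20. Deviations of same-numbered libraries correlated at -0.04, 0.21 and 0.14 over genes, and not every library correlated best with its own number. With the replicate block, which pairs libraries that share only a number, 23 genes were called, 8 higher and 15 lower, of which 18 were among the main ones. No filter or a filter over all 21 libraries gave 25, median-ratio scaling 22, quantile normalization 19, a random effect for same-numbered libraries of 1 genotype 21 and no variance trend 28. The MPP4 effect minus the HSC effect gave 0 genes, 4 with library weights, 4 with the random effect, and 0 to 1 when leaving out 1 library; minus the CLP effect it gave 0, 5 with the random effect, and 0 to 2. Of 483 values of the 23 genes over the alternatives, 159 lost the call and 0 changed direction. Most of these settings could not have turned the direction of groups that do not overlap. The Etv6 transcript difference stayed between -0.11 and -0.01. Depth is unknown, so no counting interval was given.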
